A study of Mus musculus with 7 samples.

Results

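Cells that had received the reprogramming factors but had not switched on the Oct4GFP reporter by day 15 were compared between 5C medium (5C-Oct4GFP-) and mES medium (mES-Oct4GFP-). These are 2 of the 7 RNA-Seq libraries of the study, 1 for each medium, so there is no replicate and no test between the media. All 29267 genes of the RSEM tables were read, and the 12263 with at least 5 TPM (a transcript level corrected for transcript length and library size) in either library were compared. *Axin2*, with a TPM of 5 in 5C-Oct4GFP-, lay just inside this limit, as did *A830082K12Rik* with 5 in the same library, and *Nsg2* (4.99 in 5C-Oct4GFP-) and *Pdgfra* (4.99 in mES-Oct4GFP-) lay just outside.

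Both libraries came from OG2 mouse embryonic fibroblasts (MEFs), taken from embryos that carry a green fluorescent reporter driven by the *Oct4* promoter with its proximal enhancer removed (GOF18ΔPE). The fibroblasts were infected on days 0 and 1 with retroviruses for the 4 factors *Oct4*, *Klf4*, *Sox2* and *c-Myc*, kept in either medium from day 2, and separated by FACS on day 15 without being passaged. mES medium is DMEM with fetal bovine serum, non-essential amino acids, GlutaMax and pyruvate. 5C medium is serum-free DMEM/F12 with the N2 supplement and bFGF. LIF, vitamin C and β-mercaptoethanol were present in both, so serum, bFGF, N2 and the base medium differ together and cannot be told apart. Oct4GFP- cells are what remains after the reporter-positive cells have been taken out, and they can hold several kinds of cells in unknown shares. In such bulk libraries, fewer cells of a kind and less RNA per cell cannot be told apart.

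Reprogramming asks fibroblasts to leave the cell cycle control, matrix and metabolism of mesenchymal cells and to restart the pluripotency network. Most infected cells do not get there. They may stay fibroblast-like, stall at an intermediate state, or take on genes of other lineages, among them the extraembryonic endoderm, trophoblast, epidermis and neural tissue. Serum carries lipids, growth factors and BMP activity, while serum-free media with N2 and bFGF are widely used to let neural progenitors grow.

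The difference of a gene is log2(TPM + 1) in 5C-Oct4GFP- minus that in mES-Oct4GFP-, a scale that understates the change of low genes, and a gene was called higher or lower at a difference of at least 1, which is 2-fold. By this measure 1007 genes (8.21% of those compared) were higher in 5C-Oct4GFP- and 1158 (9.44%) were lower, 17.7% in either direction. The median over all genes compared was 0.03, the 5th percentile -1.48 and the 95th percentile 1.33. Beside each fold stands, in brackets, the exact 95% interval of the TPM ratio, computed from the reads. It covers the sampling of reads only and not the spread between cultures. The interval lay above 1 for 993 of the higher genes and below 1 for 1143 of the lower genes. Where a gene had no read in a library, the fold is a lower bound against the level that 3 reads in that library would give. Levels below are in TPM, with 5C-Oct4GFP- first where no library is named.

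Genes were then described by lists of pathways and cell type markers, by the number of members higher, lower or neither and by the list's median difference. Of 1119 entries in 61 lists (a gene can be in several), 930 passed the 5 TPM limit and are counted. A gene that passed through 1 library alone had to differ, so the counts of sparsely expressed lists are descriptions, to be read against the 8.21% and 9.44% over all genes.

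**Figure D1:**
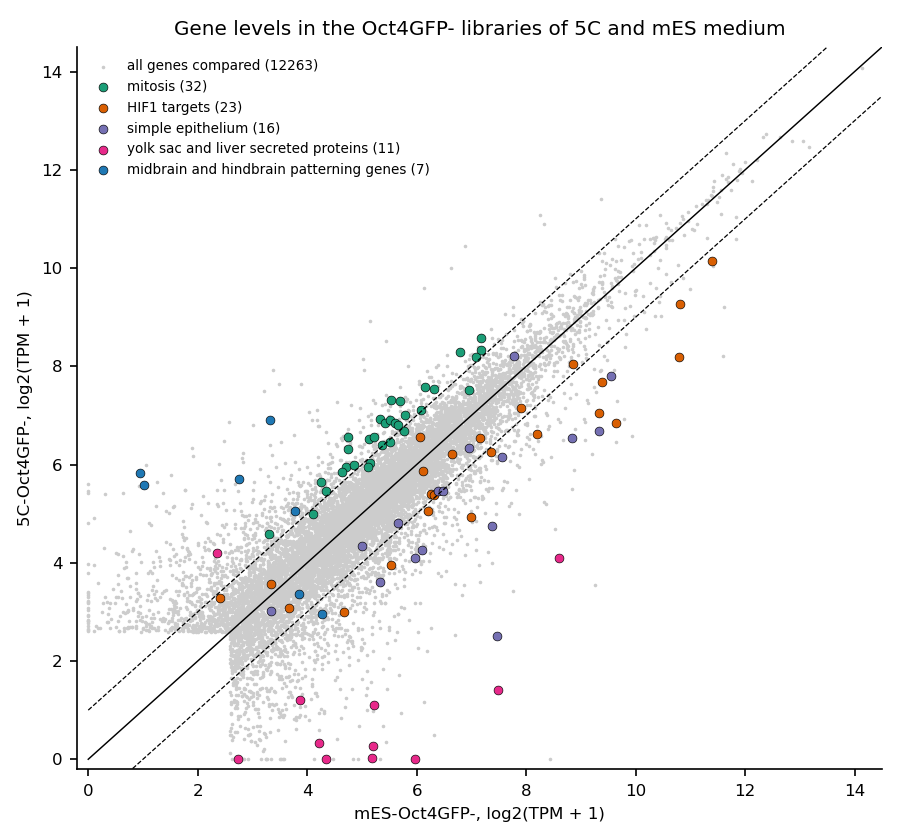
Level of each of the 12263 genes compared, as log2(TPM + 1), in mES-Oct4GFP- (x axis) and 5C-Oct4GFP- (y axis), 1 library each; the solid line marks equal levels and the dashed lines a difference of 1. Mitosis genes lie above the solid line, and all but 1 of the simple epithelial markers lie below it. The yolk sac genes lie below it but for *Apoa2*, and the midbrain and hindbrain genes above it but for *Fgf8* and *Irx3*.

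The 2 libraries were of like depth, with 8346747 estimated reads in 5C-Oct4GFP- and 8821887 in mES-Oct4GFP-, within the range of 6108252 to 11496615 over the 7 libraries. Transcripts of the delivered factors were abundant in both. *Klf4* stood at 1512 and 1613 TPM, *Myc* at 1622 and 1884, and *Sox2* at 679.9 and 498. *Pou5f1*, which encodes Oct4, stood at 1534 in 5C-Oct4GFP- and 3640.4 in mES-Oct4GFP-, 2.37-fold lower [2.31 to 2.43]. The reads of these 4 genes may come from the viral coding sequences as well as from the cells' own copies, which cannot be told apart in the tables.

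Fibroblast markers were measured in both libraries. Their summed level was 2718 TPM in 5C-Oct4GFP- and 2693 in mES-Oct4GFP-, most of it from *Vim* (vimentin, an intermediate filament) at 2468 and 2209, and in the Oct4GFP+ libraries the sum was 366 and 404. Of the 11 markers compared, 6 were lower in 5C-Oct4GFP-, 1 was higher and 4 were neither, with a median difference of -1.13. *Prrx1*, a transcription factor of limb and craniofacial mesenchyme, was 4.77-fold lower [4.20 to 5.44], and *Twist2*, another mesenchymal factor, stood at 0.45 and 8.21. The exception was *Thy1*, a surface protein that fibroblasts lose early in reprogramming, with 53.3 in 5C-Oct4GFP- and 8.73 in mES-Oct4GFP-, 6.10-fold higher [4.67 to 8.09]. Of 14 macrophage markers 8 were at 0 in 5C-Oct4GFP- and 1 in mES-Oct4GFP-, and of the 4 compared 1 was higher and 2 lower (median -0.94). Among those at 0 in 5C-Oct4GFP-, *Adgre1*, *C1qa*, *C1qc*, *Fcer1g* and *Tyrobp* had only 1 or 2 reads in mES-Oct4GFP-. The higher marker, *Cd14*, stood at 18.9 and 3.33, 5.69-fold higher [3.59 to 9.41]. *Csf1r*, the receptor for macrophage colony-stimulating factor, was at 0 and 5.33, while *Cd68*, which other cells also make, stood at 20.1 and 50.4. Of 11 endothelial markers 7 were compared, 4 of them lower in 5C-Oct4GFP- and 0 higher (median -1.65). *Flt1*, a VEGF receptor, stood at 2.17 and 22.3, and *Pecam1* at 5.43 and 7.55. *Tek* went the other way, the only compared marker with a positive difference (0.98), at 40.4 and 19.9, 2.03-fold higher [1.79 to 2.30]. Summed over the lists, macrophage markers stood at 77.8 and 123 TPM and endothelial markers at 60.2 and 86.2, and their part in the differences below was not tested.

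Genes of cell division were higher in 5C-Oct4GFP-. All 32 mitosis genes had a positive difference, each with its interval above 1, and 26 of them passed 2-fold, with a median of 1.23. *Mki67*, the gene of the proliferation antigen Ki-67, stood at 158 TPM in 5C-Oct4GFP- and 45.1 in mES-Oct4GFP-, 3.49-fold higher [3.32 to 3.67]. *Nusap1*, which binds spindle microtubules, stood at 93.8 and 26, 3.61-fold higher [3.20 to 4.09]. *Ccna2*, the cyclin of S phase and G2, stood at 155 and 50.8, 3.06-fold higher [2.79 to 3.35]. *Prc1*, which bundles microtubules of the central spindle, *Kif11*, the motor that separates the spindle poles, and *Top2a*, topoisomerase II alpha, were 3.05-fold, 3.03-fold and 2.68-fold higher. The 32 genes summed to 4097 TPM in 5C-Oct4GFP- and 1712 in mES-Oct4GFP-, against 6167 and 5606 in the Oct4GFP+ libraries of the same media, where 1 of the 32 was higher, 0 were lower and the median was 0.11.

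DNA replication genes went the same way by less. All 41 had a positive difference, 40 with the interval above 1, and 19 were called higher, with a median of 0.98. *Tk1* (thymidine kinase) stood at 137 and 43.3, 3.17-fold higher [2.74 to 3.69], and *Rrm2*, the small subunit of ribonucleotide reductase, at 254 and 81.2, 3.13-fold higher [2.88 to 3.40]. *Gins1* and *Cdc45*, partners of the replicative helicase, were 2.91-fold and 2.68-fold higher, and *Pold1*, a DNA polymerase delta subunit, 2.85-fold. *Pcna*, the sliding clamp and the most abundant member, stood at 486 and 245, 1.98-fold higher [1.86 to 2.11]. In Oct4GFP+ cells 0 of the 41 were higher and 2 were lower (median -0.34).

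Among 27 cyclins, CDK inhibitors and p53 targets, 2 were higher, 4 were lower and 21 were neither (median -0.17). The 4 lower genes were *Cdkn1a* (the CDK inhibitor p21) at 241 and 778, 3.23-fold lower [3.07 to 3.41], *Cdkn2a* (the Ink4a/Arf locus, a barrier to reprogramming) at 72.4 and 236, 3.26-fold lower [2.83 to 3.77], *Rb1* (the retinoblastoma protein) at 46.2 and 125, and *Ccnd2* (cyclin D2) at 132 and 326. *Cdkn2c* (the CDK inhibitor p18) had the largest difference and was higher, at 20.2 and 2.99, 6.76-fold higher [4.23 to 11.4]. *Cdk4*, the most abundant of the 27, stood at 1134 and 798, 1.42-fold higher [1.35 to 1.49].

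**Figure D2:**
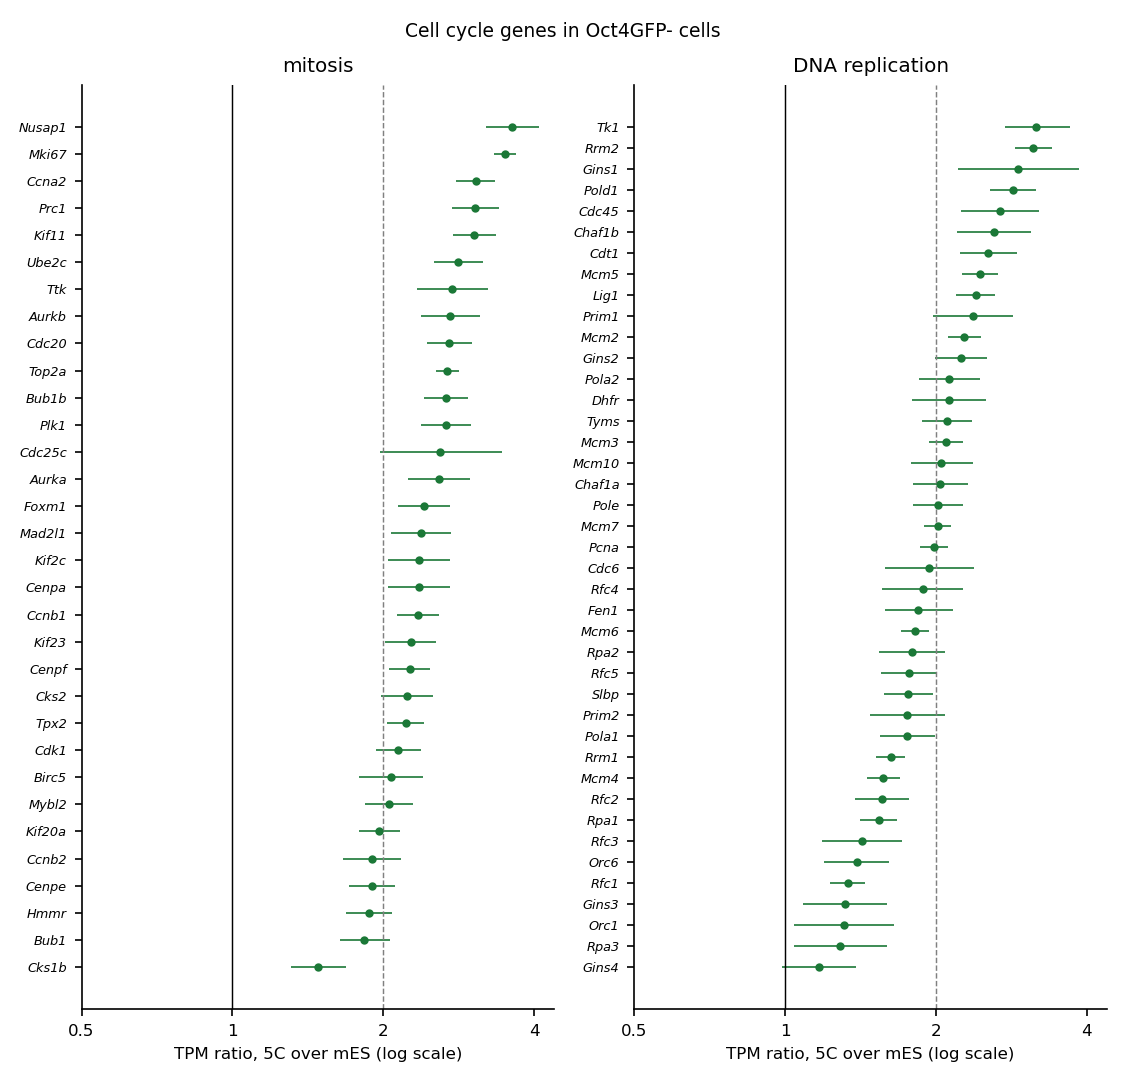
TPM ratio of 5C-Oct4GFP- over mES-Oct4GFP- (log scale) for the 32 mitosis genes and 41 DNA replication genes; points are the ratios, bars the exact 95% interval from reads, the solid line marks equal levels and the dashed line 2-fold. All points lie to the right of the solid line, from 1.17 for *Gins4* to 3.61 for *Nusap1*.

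Many genes of mitosis carry in their promoter the short element TTTGAA, called the cell cycle genes homology region, and S phase genes often hold an E2F element such as TTTCCCGC. Both were searched on both strands in RefSeq windows of 300 bases on GRCm38.p6, from 250 before to 50 after each start. TTTGAA was found in 19 of 27 windows of the mitosis genes (70.4%, from 26 genes with a window) and in 17.9% of all 32851 windows, and CCAAT, which does not overlap it, in 81.5% against 37.4%. TTTCCCGC was in 6 of 37 replication windows (16.2%) and 1.07% of all. The 250 bases before the start are shown for the members with the largest differences that hold the element, which is in capitals. *Mki67* (chr7:135716380-135716629, minus strand) holds TTTGAA at 2 places, and *Prc1* (chr7:80294226-80294475, plus strand) at 1.
Mki67: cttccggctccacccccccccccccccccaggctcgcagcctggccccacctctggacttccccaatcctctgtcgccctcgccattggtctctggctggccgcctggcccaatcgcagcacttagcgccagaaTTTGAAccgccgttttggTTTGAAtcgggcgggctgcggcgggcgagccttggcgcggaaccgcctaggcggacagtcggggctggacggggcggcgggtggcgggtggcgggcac
Prc1: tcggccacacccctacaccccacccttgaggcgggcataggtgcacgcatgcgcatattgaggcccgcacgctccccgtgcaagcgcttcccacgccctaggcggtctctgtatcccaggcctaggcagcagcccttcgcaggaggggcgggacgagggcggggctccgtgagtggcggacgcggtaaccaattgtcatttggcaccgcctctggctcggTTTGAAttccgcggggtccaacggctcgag
In *Mcm7* (chr5:138171884-138172133, minus strand), a subunit of the MCM helicase at 298 and 148 TPM (2.02-fold higher), and *Cdc6* (chr11:98907901-98908150, plus strand), which loads that helicase, at 24.6 and 12.7 TPM (1.94-fold higher), TTTCCCGC lies on the opposite strand, so its reverse complement is in capitals. A match of letters is a description and does not show that a factor binds.
Mcm7: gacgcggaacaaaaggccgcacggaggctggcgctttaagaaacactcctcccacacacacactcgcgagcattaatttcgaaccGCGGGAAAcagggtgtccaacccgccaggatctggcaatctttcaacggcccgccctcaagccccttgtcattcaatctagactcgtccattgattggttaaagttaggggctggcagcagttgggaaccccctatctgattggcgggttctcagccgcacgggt
Cdc6: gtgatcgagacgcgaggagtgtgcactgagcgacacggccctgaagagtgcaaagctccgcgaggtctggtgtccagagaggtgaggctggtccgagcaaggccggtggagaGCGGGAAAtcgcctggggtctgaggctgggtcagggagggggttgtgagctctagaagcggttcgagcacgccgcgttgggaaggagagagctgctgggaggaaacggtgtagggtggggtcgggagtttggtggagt

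Genes that cells switch on in low oxygen were lower in 5C-Oct4GFP-. HIF1 is a transcription factor that is degraded when the EGLN oxygen sensors are active and that otherwise raises glucose uptake, glycolysis and blood vessel growth factors. Of its 23 targets compared, 12 were lower, 0 were higher and 11 were neither, with a median of -1.10, and 20 had an interval below 1. *Egln3*, an oxygen sensor that HIF1 itself induces, stood at 113 TPM in 5C-Oct4GFP- and 799.9 in mES-Oct4GFP-, 7.06-fold lower [6.65 to 7.5]. *Slc2a1* (the glucose transporter GLUT1) stood at 293 and 1765, 6.03-fold lower [5.81 to 6.26], and *Slc2a3* (GLUT3) at 205 and 667, 3.25-fold lower [3.13 to 3.38]. *Bnip3*, which marks mitochondria for autophagy, was 4.86-fold lower and *Ankrd37* 4.27-fold lower. *Ldha* (lactate dehydrogenase A), the most abundant target, stood at 1127 and 2699. The transcript of *Hif1a* itself, picked after its value was seen, stood at 93.0 in 5C-Oct4GFP- and 65.9 in mES-Oct4GFP-.

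Glycolysis followed, with several genes in both lists. Of 23 enzymes and transporters, 10 were lower, 0 higher and 13 neither (median -0.79), and 19 had an interval below 1. *Slc16a3* (MCT4), which exports lactate, stood at 89.7 and 406, 4.53-fold lower [4.19 to 4.90]. *Pgk1* (phosphoglycerate kinase) was 2.93-fold lower at 611 and 1791, *Pfkp* (a phosphofructokinase) 2.88-fold, and *Aldoa* (aldolase A) 2.57-fold at 1056 and 2712. *Gapdh*, the most abundant, stood at 5680.4 and 9200.4, 1.62-fold lower [1.59 to 1.65]. In Oct4GFP+ cells the HIF1 targets and the glycolysis genes had positive medians, 0.68 and 1.18.

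The core of the HIF1 element, ACGTG, which is also part of the E-box CACGTG, was in 16 of 27 windows of HIF1 targets (59.3%) and 19.6% of all windows. It is shown in capitals for the 2 targets with the largest differences, *Egln3* (chr12:54203875-54204124, minus strand) and *Slc2a1* (chr4:119108495-119108744, plus strand).
Egln3: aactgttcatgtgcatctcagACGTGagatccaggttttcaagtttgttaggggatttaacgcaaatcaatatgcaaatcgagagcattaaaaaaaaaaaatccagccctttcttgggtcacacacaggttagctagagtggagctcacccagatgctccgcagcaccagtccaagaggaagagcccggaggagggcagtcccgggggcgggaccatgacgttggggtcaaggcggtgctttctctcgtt
Slc2a1: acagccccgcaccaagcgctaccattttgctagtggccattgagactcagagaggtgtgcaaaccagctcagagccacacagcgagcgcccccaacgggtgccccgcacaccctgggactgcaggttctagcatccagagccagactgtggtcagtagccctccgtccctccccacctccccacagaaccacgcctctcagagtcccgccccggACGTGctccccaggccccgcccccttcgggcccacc
The elements searched for the other lists were searched the same way. The interferon-stimulated response element was in 52.4% of the interferon windows against 3.44%, GGAATG in 76.9% of the YAP windows against 14.7%, the CArG box in 22.2% of the contractile windows against 1.63%, TGACNNNGC in 37.5% of the NRF2 windows against 12.4% and TGATGCAA in 10.3% of the ATF4 windows against 0.895%. TGCNCNC was in 68.4% of the metal gene windows against 51.0%, and TTCNNNGAA in 12.5% of the LIF windows against 8.30%. A sterol regulatory element was in 0 of 19 windows of cholesterol synthesis genes and 0 of 23 of the sterol uptake genes, against 0.0913% of all, and CCAAT in 78.9% and 39.1%.

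Genes of lineages other than fibroblasts were among the largest differences. The lists of yolk sac, cornified envelope, midbrain and hindbrain, glial, and one-carbon genes were written after earlier values of these data had been seen, so their direction carries no independent support. Of 17 genes of visceral endoderm and liver, most of them for secreted proteins, 11 were compared. Of these, 10 were lower in 5C-Oct4GFP- and 1 was higher, with a median of -4.34. *Rbp4* (plasma retinol-binding protein) stood at 1.64 and 177, 108-fold lower [49.4 to 295]. *Apoa1*, the main apolipoprotein of HDL, had 61.3 TPM in mES-Oct4GFP- and no read in 5C-Oct4GFP-, at least 64.9-fold lower. *Apob* (the apolipoprotein of LDL) stood at 0.02 and 35.2, *Ttr* (transthyretin) at 0.20 and 36.0, and *Spink1*, a trypsin inhibitor, at 16.1 and 386. The higher member, picked after its value was seen, was *Apoa2* (17.3 and 4.13), another apolipoprotein of HDL. Among members under the limit, also picked after their values were seen, *Alb* (albumin) was higher at 2.62 and 0, while *Cubn*, *Fgb* and *Apoa4* had negative differences.

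Transcription factors of the primitive endoderm, which forms the yolk sac endoderm, were low in 5C-Oct4GFP- and measurable in mES-Oct4GFP-. *Gata4* stood at 2.48 and 33.0, 13.3-fold lower [9.29 to 19.7], *Gata6* at 2.10 and 10.5, and *Sox17* at 2.57 and 18.2. *Dab2*, an endocytic adaptor of this tissue, stood at 10.8 and 103. Of 7 markers 6 were compared, of which 5 were lower (median -2.52), and the other one, *Lama1*, a laminin chain of basement membranes, was 3.19-fold higher [2.95 to 3.45] at 64.6 and 20.2. Trophoblast markers also stood higher in mES-Oct4GFP-. Of 9 listed, 5 were compared, of which 3 were lower in 5C-Oct4GFP- and 2 neither (median -1.10). *Hand1*, a factor of trophoblast giant cells and extraembryonic mesoderm, stood at 0.27 and 42.6, 157-fold lower [43.3 to 1306], and *Eomes* at 3.54 and 10.3, while *Cdx2* (0.21 and 1.45), *Elf5* (0.18 and 3.57) and *Gata3* (0.82 and 4.59) stayed under the 5 TPM limit in both.

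Keratins and junction genes of simple epithelium, the single-layered kind, were lower in 5C-Oct4GFP- for 10 of 16 markers and higher for 0, with a median of -1.56. *Krt8*, the most abundant, stood at 221 and 748, 3.39-fold lower [3.20 to 3.58], its partner *Krt18* at 91.8 and 454, and *Krt19* at 102 and 643. *Krt7* had the largest difference, with 4.68 and 176 (37.7-fold lower [28.9 to 50.1]). *Cldn6*, a tight junction claudin of early embryonic epithelium, stood at 25.8 and 166. *Epcam*, picked after its value was seen as the only marker with a positive difference, stood at 294 and 218, 1.35-fold higher [1.27 to 1.43].

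Epidermal barrier genes stood further apart. Of 18 cornified envelope genes 16 were compared, of which 14 were lower, 1 was higher and 1 was neither (median -3.18). *Nccrp1* stood at 10.8 and 610.1, 56.7-fold lower [44.5 to 73.3], *Krt80* at 9.78 and 215, and *Alox12b*, a lipoxygenase of the skin's lipid barrier, at 0.60 and 40.6. *Sprr2d*, one of a family of near-identical genes whose reads are hard to assign, had 21.2 TPM in mES-Oct4GFP- and none in 5C-Oct4GFP-. *Ly6d* was the higher member, with 198 and 10.1 (19.5-fold higher [13.5 to 29.2]). Among 15 stratified epithelium markers, *Krt5*, the keratin of basal cells, was likewise higher, at 43.8 and 2.41 (18.2-fold [12.1 to 30.0]), while its partner *Krt14* stood at 44.8 and 75.3. *Krt6a*, *Krt16*, *Sprr1a* and *Perp* were lower, 4 of the 9 compared (median -0.74), and *Trp63*, the master factor of stratified epithelium, was under 5 TPM in both (2.19 and 0.89).

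Several neural genes were higher in 5C-Oct4GFP-. Of 13 midbrain and hindbrain patterning genes 7 were compared, of which 5 were higher, 1 lower and 1 neither (median 2.95). *En2* stood at 55.6 and 0.92, 60.8-fold higher [36.0 to 112], its paralog *En1* at 51.3 and 5.78, and *Gbx2*, which sets the boundary between midbrain and hindbrain, at 47.0 and 1.02. *Cnpy1*, a modulator of FGF signalling at that boundary, stood at 119 and 9.03. *Fgf8*, the signal of the boundary, went the other way, at 6.74 and 18.3 (2.71-fold lower [1.73 to 4.36]), and *Wnt1*, *Pax2*, *Pax5* and *Pax8* were below 2 TPM in both libraries. Of the 13 listed genes 7 had a negative difference, 5 of them among the 6 not compared. Some of these genes were also expressed in Oct4GFP+ cells: *Gbx2* stood at 57.8 in 5C-Oct4GFP+ and 81.6 in mES-Oct4GFP+, *Cnpy1* at 14.3 and 56.3 and *En2* at 3.69 and 10.8.

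Of 11 neural progenitor markers 9 were compared, of which 6 were higher and 0 lower (median 1.52). *Fabp7*, a fatty acid-binding protein of radial glia, stood at 48.7 and 7.13, *Sox1* at 15.5 and 2.38, *Msi1* at 53.3 and 17.9 and *Zic1* at 17.7 and 5.15. *Pax6* stood at 2.36 and 5.20. Of 11 neuronal markers 7 were compared, of which 3 were higher and 0 lower (median 0.88): *Elavl4*, an RNA-binding protein of neurons, at 27.2 and 1.15, *Tubb3* at 90.1 and 23.7, and *Map2* at 41.2 and 15.8. In the Oct4GFP+ libraries *Tubb3* stood at 43.5 in 5C and 91.7 in mES, and *Msi1* at 13.2 and 35.7.

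Several glial genes were also higher in 5C-Oct4GFP-. Of 13 astrocyte and oligodendrocyte precursor genes 7 were compared, of which 6 were higher and 1 neither (median 3.74). Among those under the limit, *S100b*, *Ncan* and *Aqp4* had positive differences and *Gpm6a*, *Cspg5* and *Pdgfra* negative ones. *Pdgfra* stood just under the limit at 1.08 and 4.99, 4.60-fold lower [3.09 to 7.07]. *Bcan* (brevican, a proteoglycan of the brain's matrix) stood at 47.4 in 5C-Oct4GFP- with no read in mES-Oct4GFP-, at least 94.2-fold higher. *Bcas1*, a marker of maturing oligodendrocytes, stood at 41.4 and 0.24, *Mlc1*, an astrocyte membrane protein, at 14.4 and 0.08, and *Ptn* (pleiotrophin) at 198 and 13.8 (14.3-fold higher [11.8 to 17.3]). Of 11 neural crest and glia markers 6 were compared, of which 3 were higher and 1 lower (median 1.26). *Gfap*, the astrocyte filament, stood at 14.1 and 0.62 and *Sox10* at 18 and 1.37. The lower marker, *Erbb3*, stood at 17.5 and 37.6, 2.15-fold lower [1.92 to 2.41]. *Olig1* (0.90 and 0.11), *Olig2* (1.09 and 0.10) and *Aqp4* (0.61 and 0.23) were near 0 in both.

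**Figure D3:**
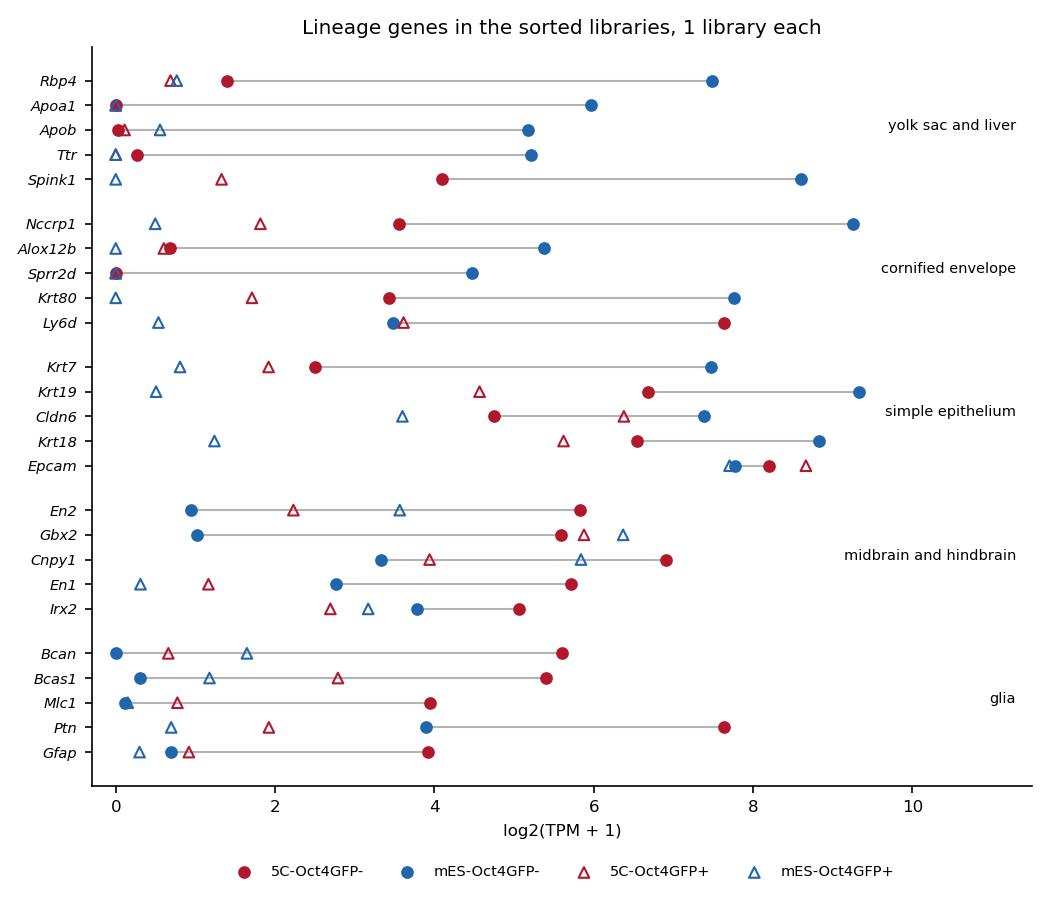
Level, as log2(TPM + 1), of 25 lineage genes in the 4 sorted libraries, 1 library each; filled circles are Oct4GFP- and open triangles Oct4GFP+ cells, and the grey line joins the 2 Oct4GFP- libraries. The yolk sac genes and, but for *Ly6d* and *Epcam*, the epithelial genes stand to the right in mES-Oct4GFP-, and the midbrain, hindbrain and glial genes stand to the right in 5C-Oct4GFP-.

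Markers of other mesodermal tissues showed no common side. Of 11 skeletal muscle markers 5 were compared, of which 3 were lower (median -1.34) and the muscle determination genes *Myod1*, *Myf5* and *Myog* had no reads in either library. Of 7 adipocyte markers 3 were compared, of which 2 were higher (median 1.09), *Fabp4* at 12.9 and 0.83 and *Cebpa* at 9.79 and 4.07, while *Pparg*, *Adipoq* and *Plin1* were below 2 TPM. Of 10 cartilage and bone markers 5 were compared, of which 1 was higher and 2 lower (median -0.31), with *Sox9* at 10.3 and 4.52 and *Runx2* at 3.33 and 10.3.

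Several pluripotency genes were more abundant in 5C-Oct4GFP- although the sort had removed reporter-positive cells. Of 25 compared, 11 were higher, 1 (*Pou5f1*) was lower and 13 were neither, with a median of 0.52. Of the 25, 10 had a negative difference, and 8 had an interval below 1. The 30 listed genes, *Pou5f1* included, summed to 5295 TPM in 5C-Oct4GFP- and 6456 in mES-Oct4GFP-. *Nr5a2*, a nuclear receptor that can stand in for Oct4, stood at 53.9 and 1.84, 29.2-fold higher [20.3 to 43.6], and *Nanog* at 119.5 and 17.1, 6.98-fold higher [5.90 to 8.28]. *Tdh* (threonine dehydrogenase) stood at 481 and 34.6, 13.9-fold higher [12.3 to 15.8], *Dppa5a* at 110.4 and 7.06, and *Esrrb* at 15.3 and 1.26.

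Set against the Oct4GFP+ library of the same medium, these levels differed widely from gene to gene. In 5C-Oct4GFP- cells *Nr5a2* was at 109% of the 5C-Oct4GFP+ level, *Tdh* at 68.7% and *Nanog* at 47.2%, while *Esrrb* was at 6.64%, *Zfp42* at 6.43%, *Dppa5a* at 2.34% and *Dppa4* at 1.19%. In mES-Oct4GFP- cells *Tdh* was at 5.41% of the mES-Oct4GFP+ level, *Nr5a2* at 4.29%, *Nanog* at 2.46% and *Dppa5a* at 0.19%. Among the 1945 genes with at least 100 TPM in 5C-Oct4GFP+ cells the lowest shares were those of *Dnmt3l* at 0.20%, *Dppa4* at 1.19% and *Rbmxl2* at 1.77%. The part of carried-over Oct4GFP+ cells in these levels was not tested.

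Formative and primed genes, which mark pluripotent cells leaving the ground state, were mixed. Of 14 compared, 5 were higher, 3 lower and 6 neither (median 0.13). *Pou3f1* (Oct6) stood at 30.1 and 6.18, *Sox11* at 65.3 and 18.4 and *T* (brachyury) at 26.6 and 9.96. *Fgf5* was near equal at 18.1 and 19, and *Cer1*, an antagonist of Nodal and BMP made by anterior endoderm, stood at 3.38 and 33.2 (9.84-fold lower [6.46 to 15.6]).

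Signalling genes separated by pathway. Several genes of FGF receptors and ERK feedback were higher in 5C-Oct4GFP-. The 5C medium contains bFGF, whose part in these differences was not tested. Of 18 FGF receptor and ERK feedback genes, 7 were higher, 2 lower and 9 neither (median 0.46), with *Fgfr3* at 38.3 and 7.06 (5.42-fold higher [4.44 to 6.66]), the phosphatase *Dusp6* at 119 and 34.7 (3.44-fold [3.08 to 3.84]), *Etv4* at 92.1 and 26.9 and *Spry4* at 84.4 and 26.6. *Fgf10* went the other way, at 0.41 and 5.10. Immediate early genes, which respond to growth factors within minutes, were mixed: 2 of 17 were higher, 4 lower and 11 neither (median 0.16), with *Fos* equal at 821 and 815, *Egr3* at 16.9 and 6.41 and *Fosl2* at 18.6 and 63.5.

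BMP genes were lower or neither, with 7 of 17 lower and 0 higher (median -0.39). The ligands *Bmp2* (1.88 and 15.9), *Bmp4* (4.18 and 27.3) and *Bmp6* (1.80 and 15.9) and the inhibitory *Smad6* (3.56 and 24.3, 6.84-fold lower [4.98 to 9.60]) were among them, whereas *Id1*, the pathway's direct target and the most abundant member, was near equal at 391 and 414. Of 19 TGF-beta genes 6 were lower and 0 higher (median -0.53). The feedback inhibitors *Skil* (18 and 53, 2.95-fold lower [2.64 to 3.30]) and *Smad7* (8.12 and 23.7) were lower, as were the ligands *Tgfb1* (15.4 and 37.0) and *Tgfb2* (13.9 and 29.6).

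Several IGF genes and imprinted genes were lower. *Igf2*, a fetal growth factor in both lists, stood at 95 and 972, 10.2-fold lower [9.58 to 10.9], and *H19*, the non-coding RNA beside it, at 297 and 3110.2, 10.5-fold lower [10.1 to 10.9]. Of 21 imprinted genes 10 were lower, 1 was higher and 10 were neither (median -0.96), with *Peg10* at 36.9 and 319.6, *Plagl1* at 7.41 and 53.5 and *Dlk1* at 36.3 and 210.0 (5.78-fold lower [4.96 to 6.77]). Of 15 genes of the IGF list 6 were lower and 1 higher (median -0.71): the binding protein gene *Igfbp4* stood at 27.8 and 134, and *Igfbp7* went the other way, at 83.5 and 35.7.

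Wnt genes had 4 of 19 higher and 5 lower (median 0.21). *Notum*, which inactivates Wnt ligands and is induced by the pathway, stood at 154 and 22.3, 6.89-fold higher [5.72 to 8.35], and the ligands *Wnt4* (0.91 and 10.3) and *Wnt11* (0.41 and 6.70) and the antagonist *Dkk1* (1.00 and 10.6) were lower. In the Notch pathway 4 of 12 were higher and 2 lower (median 0.41). *Notch1* stood at 45.7 and 10, 4.57-fold higher [4.10 to 5.09], with its ligands *Dll1* at 30.0 and 6.33 and *Dll3* at 11.8 and 2.32, whereas *Notch3* (24.1 and 58.8) and *Jag2* (12.7 and 37.7) were lower.

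The LIF pathway, whose ligand was in both media, differed little, with 1 of 15 genes higher and 2 lower (median -0.10). *Lifr* stood at 23.2 and 22.7, *Stat3* at 105 and 113 and its target *Socs3* at 111 and 139, while *Socs2* was 2.88-fold higher [2.54 to 3.29]. Retinoic acid genes had 3 of 13 higher and 5 lower (median -0.53). *Cyp26a1*, which breaks retinoic acid down and is induced by it, stood at 3.58 and 72.0, 20.1-fold lower [13.6 to 31.0], and *Dhrs3*, which returns retinal to retinol, at 5.02 and 64.2, while *Aldh1a2*, which makes retinoic acid, was 10.1-fold higher [4.87 to 24.2] at 8.34 and 0.83. Of 7 targets of the AhR and glucocorticoid receptors, 1 was higher (*Fkbp5*, 45.0 and 18.4) and 1 lower (*Klf9*, 23.9 and 65.9), with a median of -0.60.

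Collagen, crosslinking and contractile genes had negative medians. Of 21 collagen chains 9 were lower, 3 higher and 9 neither (median -0.84). *Col1a1*, the main fibrillar collagen, stood at 45.0 and 159.6, 3.55-fold lower [3.32 to 3.79], *Col5a1* at 13.0 and 54.0 and *Col6a1* at 98.7 and 292, but *Col6a3* (81.4 and 24.9) and *Col16a1* (48.8 and 14.3) were higher. Collagen processing enzymes had 8 of 18 lower and 1 higher (median -0.70). The crosslinking lysyl oxidases *Loxl4* (5.37 and 75.9) and *Loxl2* (14.6 and 139) were 14.1-fold and 9.56-fold lower and the prolyl hydroxylase *P4ha1* 5.13-fold at 51.5 and 264, while *Serpinh1*, the collagen chaperone, was near equal at 541 and 584. Matrix glycoproteins and proteoglycans were mixed (5 of 24 higher, 4 lower, median 0.21), with *Eln* (elastin) at 19.8 and 1.81, *Fbn2* (fibrillin 2) at 65.1 and 12.8 and *Thbs1* (thrombospondin 1) at 64.3 and 175. Of 18 metalloproteinases and inhibitors 10 were compared, of which 3 were lower and 0 higher (median -0.09), and *Mmp14* stood at 163 and 128.

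Of 19 contractile and SRF target genes 4 were lower and 0 higher (median -0.44), though 16 had an interval below 1. *Actg2* (enteric actin) stood at 27.5 and 129, *Tpm2* (a tropomyosin) at 24.5 and 109, and *Tpm1*, the most abundant, at 361 and 710.0. YAP targets had 2 of 13 lower and 0 higher (median -0.45), *Ankrd1* at 1.11 and 14.6 and *F3* (tissue factor) at 18.3 and 49.5, while the direct targets *Ccn1* (962 and 837) and *Ccn2* (283 and 392) differed by less than 2-fold. Among 11 EMT factors and their opponents 4 were lower and 0 higher (median -0.81). The lower genes were mesenchymal (*Prrx1*, *Twist1* and *Twist2*) with the exception of the epithelial *Ovol1* (1.41 and 6.81), and *Snai1* (13.5 and 11.4), *Snai2* (2.99 and 2.78) and *Zeb1* (21.7 and 20.8) were neither.

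Lipid synthesis genes had mostly positive differences of less than 2-fold. All but 4 of 21 cholesterol synthesis genes had a positive difference (median 0.42), yet only *Lbr* (107 and 50.5), which is also a nuclear envelope protein, passed 2-fold. *Hmgcs1*, which feeds the pathway, stood at 426 and 217, 1.96-fold higher [1.88 to 2.05]. The efflux genes *Apoe* (191 and 606) and *Abca1* (28.9 and 79.4) and the receptor *Lrp1* (105 and 335) were lower. They belong to a list of 20 sterol uptake and efflux genes with 3 higher and 4 lower (median -0.13), and *Abcg1*, another efflux gene, was 3.02-fold higher [2.29 to 4.04] at 13.2 and 4.36.

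Fatty acid synthesis had 3 of 15 higher and 1 lower (median 0.71). *Fasn* (fatty acid synthase) stood at 336 and 138, 2.44-fold higher [2.35 to 2.54], and *Fads2*, a desaturase, at 218 and 76.0, 2.87-fold higher [2.58 to 3.19]. *Scd2*, the most abundant, stood at 848 and 482, and *Me1*, which supplies NADPH, was lower at 50.1 and 149. Among 17 genes of fatty acid oxidation and storage 3 were higher and 1 lower (median 0.05), with *Cpt1a*, the gate of mitochondrial oxidation, at 86.1 and 36.7, *Fabp5* at 936 and 443, and the lipid droplet protein *Plin2* at 70.8 and 143.

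Lists of amino acid metabolism also had positive medians. Of 11 one-carbon and threonine genes 6 were higher and 0 lower (median 1.01), with *Bhmt* (a methyltransferase that makes methionine from betaine) at 49.0 and 1.39, *Gcat*, the step after *Tdh*, at 62.9 and 26.2, and *Gldc* at 40.8 and 19.6. Of 26 ATF4 targets and serine synthesis genes 5 were higher, 1 lower and 20 neither (median 0.42). *Slc7a5* and *Slc7a11*, amino acid transporters, stood at 114 and 44.8 and at 23.2 and 8.72, and *Mthfd2* at 67.2 and 23.3. The lower one, *Nupr1*, a stress-induced transcription regulator, stood at 73.2 and 585, 7.99-fold lower [6.95 to 9.22].

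Of 16 endoplasmic reticulum chaperones and stress genes 0 passed 2-fold in either direction, but 12 had an interval below 1 (median -0.34), with *Hspa5* (BiP) at 697 and 1019 and *Calr* (calreticulin) at 772 and 1316. Lysosomal genes had 5 of 24 lower and 0 higher (median -0.57), and 22 of 24 had a negative difference. *Ctsh* stood at 3.78 and 64.2, and the more abundant cathepsins *Ctsd* (279 and 715) and *Ctsl* (120.5 and 383) were 2.56-fold and 3.18-fold lower. Among 25 NRF2 targets 3 were higher and 3 lower (median 0.39), with *Gstm2*, a glutathione transferase, at 65.5 and 20.8 and *Hmox1* (heme oxygenase 1) at 43.5 and 108. Among 16 metal genes 3 were higher and 4 lower (median 0.12): *Trf*, the iron carrier transferrin, stood at 26.2 and 1.22, 21.5-fold higher [11.0 to 47.9], and *Tfrc*, its receptor, at 41.0 and 87.5. Of 15 selenoproteins 2 were higher and 1 lower (median 0.11), *Gpx2* at 147 and 26.7, *Selenoh* at 325 and 139 and *Gpx3* at 30.0 and 129.

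Of 26 interferon response genes 4 were lower and 0 higher (median -0.49). The difference was below 0 in 19 of the 26, and the interval of the ratio lay below 1 in 16 and above 1 in 3. The lower genes included *Usp18* at 5.80 and 27.6, *Isg15* at 15.8 and 48.1 and *Irf7* at 12.5 and 36.6, while *Ifitm3*, the most abundant, was 1.58-fold higher [1.5 to 1.66] at 1517 and 959. Of 14 MHC class I genes 1 was lower and 0 higher (median -0.12), with *B2m* at 310.0 and 221, and *H2-K1* at 232 and 244. Some of these genes are near copies of each other, and their split of reads is uncertain.

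Secreted immune proteins were divided. Of 26 chemokines, cytokines and acute phase genes 15 were compared, of which 4 were higher and 5 lower (median -0.11). *Lcn2* (lipocalin 2, which binds bacterial siderophores) stood at 34.6 and 1.35, *Saa3* at 58.9 and 13.4 and *Cxcl1* at 38.1 and 11.1, and *Il1rn*, the IL-1 receptor antagonist, at 4.14 and 42.9. Of 12 complement genes 9 were compared, of which 3 were higher and 1 lower (median 0.75). *C4b* stood at 62.5 and 1.08, 57.7-fold higher [29.2 to 122], and *C3*, on which the pathways of complement meet, at 13.1 and 2.30.

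H3K9 methylation factors, part of the heterochromatin that resists reprogramming, had 0 of 16 past 2-fold (median 0.17), and *Trim28* (845 and 463), *Cbx3* (302 and 167) and *Setdb1* (78.2 and 46.1) were 1.83-fold, 1.81-fold and 1.70-fold higher. Of 15 germline genes kept silent by DNA methylation, 13 were below 5 TPM in both libraries and 0 of the other 2 were called (median 0.53), with *Rhox5* at 12.9 and 8.81. Of 39 Hox genes 25 were compared, of which 7 were higher and 2 lower (median 0.54), the larger upward differences being *Hoxd13* (5.93 and 0.28), *Hoxc11* (5.41 and 0.58) and *Hoxd11* (6.40 and 0.97) of the posterior paralog groups, together with *Hoxa9* (38.6 and 11.1). *Hoxd13*, *Hoxc11* and *Hoxd11* passed the 5 TPM limit only through 5C-Oct4GFP-, and the largest downward difference in the list was -1.47.

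**Figure D4:**
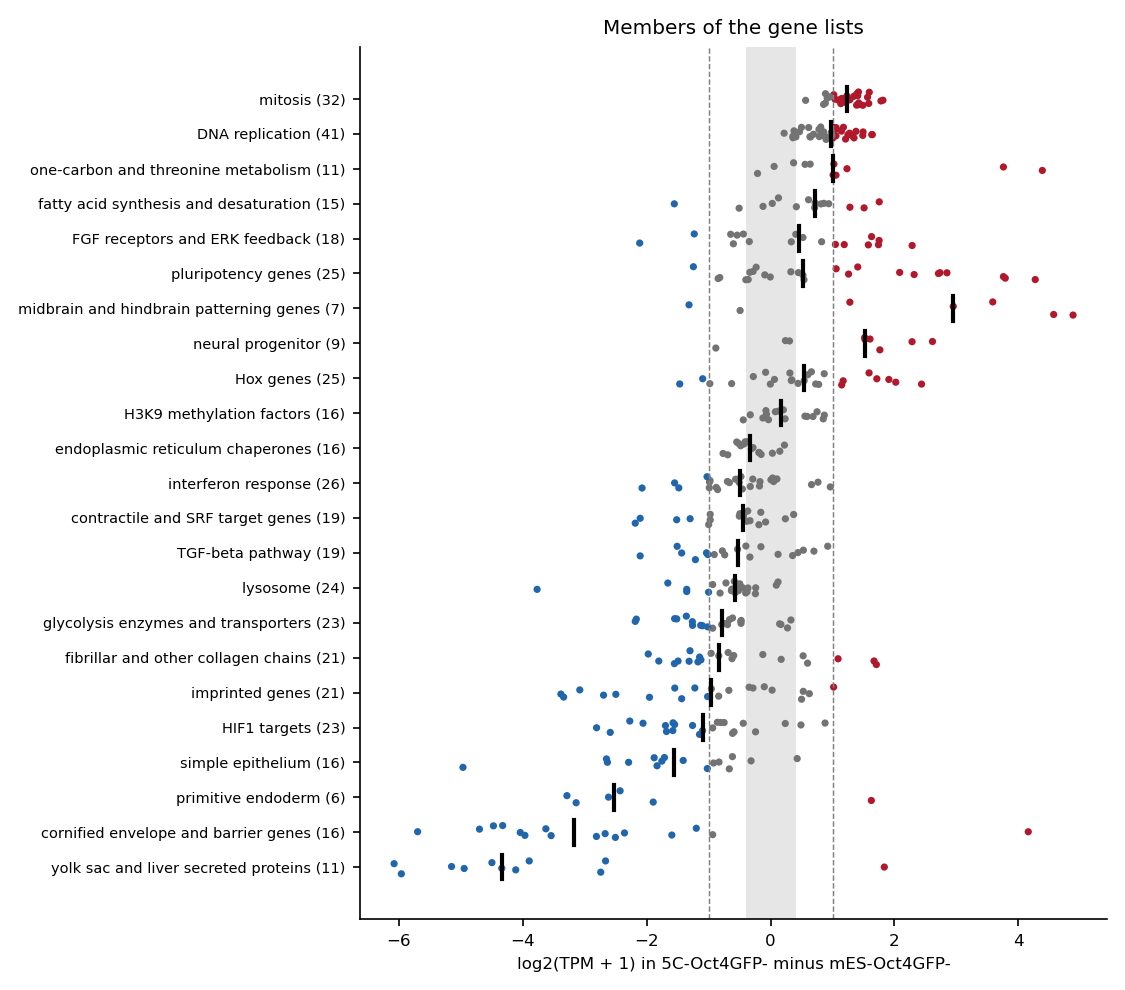
Difference of log2(TPM + 1), 5C-Oct4GFP- minus mES-Oct4GFP-, for each member of 23 gene lists (number of genes compared in parentheses). Red points are called higher, blue lower and grey neither, and the black bar is the list's median. Dashed lines mark a difference of 1, and the grey band spans percentiles 25 to 75 of all genes compared, -0.39 to 0.41. The medians run from -4.34 for the yolk sac and liver list to 2.95 for midbrain and hindbrain genes, and the 32 mitosis genes are packed between 0.57 and 1.81.

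Other genes at the extremes belonged to none of the lists. *Cytl1*, a small secreted protein, had 41.9 TPM in 5C-Oct4GFP- and no read in mES-Oct4GFP-, at least 55.5-fold higher. *Htr3a*, a serotonin-gated ion channel, stood at 42.1 and 0.56, *Efhd1*, a mitochondrial calcium-binding protein, at 46.4 and 0.89, *Nxpe2* at 29.2 and 0.07 and *Cyp2b23*, a cytochrome P450 of a family of near copies, at 243 and 9.43 (25.8-fold higher [20.8 to 32.3]). On the other side *Pyy*, the gut hormone peptide YY, had 59.9 TPM in mES-Oct4GFP- and no read in 5C-Oct4GFP-, *Sptssb*, a subunit of the enzyme that starts sphingolipid synthesis, stood at 0.41 and 78.2, *Cyp4f39*, which makes very long acylceramide precursors of the skin, at 1.23 and 69.4, and *Pbp2* at 0 and 29.6.

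Several extremes are uncertain because their reads can be shared with a near-identical copy. *Pgk1-rs7*, a retrogene copy of *Pgk1*, had 0 in 5C-Oct4GFP- and 347 in mES-Oct4GFP-, the largest difference of all genes (-8.44), and its reads may be those of *Pgk1*. The same holds for *Gm5616* (42.9 and 0), *Lsm7* (26.9 and 0), *1700097N02Rik* (14.7 and 0) and *Gm20721* (0 and 39.0), whose reads may overlap with other loci. The most abundant genes differed by less than 2-fold: *Gapdh*, a glycolytic enzyme, stood at 5680.4 and 9200.4 (1.62-fold lower [1.59 to 1.65]), *Eef1a1*, a translation elongation factor, at 17298 and 18092, *Rplp1*, a ribosomal protein, at 6549 and 6375, *Ppia* (cyclophilin A) at 6783 and 5363, *Tpt1* at 6124 and 7429, *Gm10076* at 6464 and 5125 and *Gm42418* at 6124 and 8521.

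The same media were compared in Oct4GFP+ cells, in the 2 libraries whose levels stand beside some of the results above. There 12.5% of 11479 genes were higher in 5C medium and 11.4% lower. Of the 1007 genes higher in 5C-Oct4GFP-, 731 were expressed well enough to be compared in Oct4GFP+ cells, and 229 of them (31.3%) were higher there too, 73 were lower and 429 were neither. Of the 1158 lower genes 623 were compared, of which 104 (16.7%) were lower there too and 193 (31.0%) were higher. Across the 10549 genes compared in both fractions the differences had a Pearson r of 0.07, a description over genes measured in the same 4 libraries, which are not independent.

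Groups differed in how they stood in the 2 fractions. Of 19 HIF1 targets compared in both, 14 were below 0 in Oct4GFP- and above 0 in Oct4GFP+ cells, and 7 were 2-fold apart in opposite directions. *Egln3*, at 113 and 799.9 in the Oct4GFP- pair, stood at 42.0 in 5C-Oct4GFP+ and 5.10 in mES-Oct4GFP+. Of 14 simple epithelial markers 11 crossed in this way, 7 of them by 2-fold on both sides, and of 23 glycolysis genes 16, with 6 by 2-fold. Imprinted genes crossed for 9 of 20. No mitosis gene could cross in this way, because all 32 were above 0 in Oct4GFP- cells, and 23 were above 0 in both. Immediate early genes were at least 2-fold higher in 5C medium for 13 of 14 in Oct4GFP+ cells, against 2 of 17 in Oct4GFP- cells. Their summed level was 1752 TPM in 5C-Oct4GFP+ and 200 in mES-Oct4GFP+, against 3892 in 5C-Oct4GFP- and 4030 in mES-Oct4GFP-.

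**Figure D5:**
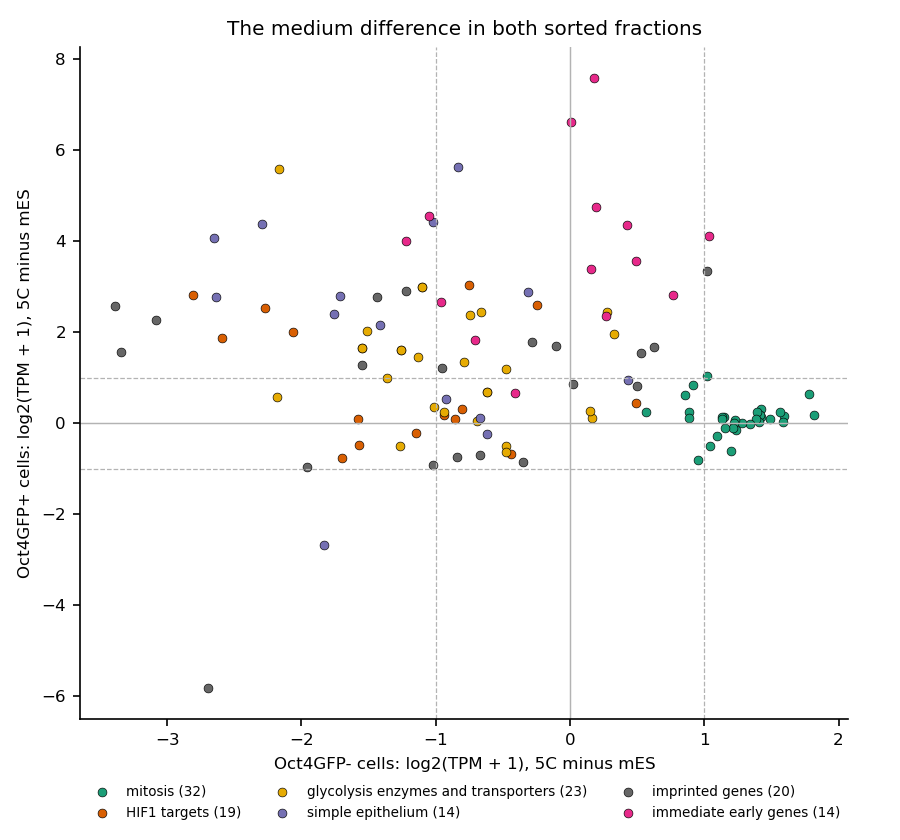
Difference of log2(TPM + 1) between 5C and mES medium in Oct4GFP- cells (x axis) and in Oct4GFP+ cells (y axis) for the members of 6 gene lists compared in both (number in parentheses), 1 library for each of the 4 groups; dashed lines mark a difference of 1. Mitosis genes lie to the right near the horizontal line, while most HIF1, glycolysis and simple epithelial genes lie in the upper left.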

How the data were processed

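RNA was measured by mRNA-Seq in 7 libraries, 4 of them of cells sorted on day 15. The 2 Oct4GFP- libraries of day 15 were compared, and the 2 Oct4GFP+ libraries of day 15 were set beside them. The authors prepared TruSeq libraries, sequenced them on an Illumina MiSeq and quantified the reads with RSEM, and the submitters' processing notes name Bowtie and mm10 (versions are not given in the sources used here). The deposited estimated counts are RSEM's expected reads per Ensembl gene, not normalized. The deposited TPM and FPKM values were computed by the authors from those counts and effective lengths, TPM to a fixed sum and FPKM to the mapped fragments.

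Differences were taken on log2(TPM + 1), with at least 5 TPM in either library and a threshold of 2-fold. Exact Clopper-Pearson 95% intervals of the ratio used those counts after rounding to whole reads, a gene at 0 was bounded by 3 reads, and no test was made, since each group has 1 library. Coordinates are GENCODE M21 on GRCm38. The members and lists were chosen with earlier results of these data known, and 5 lists after their values. Named genes were the 12 largest differences in each direction, up to 5 members with the largest difference and the most abundant member of each list (any member of lists of up to 15 genes), the 5 highest genes with no reads in the other library, the 2 nearest the TPM limit on each side, the 5 most opposed between the sorted fractions, the 5 most abundant of each library, and the retroviral factors. Other names are given as picked after their values were seen.

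Of 29267 gene identifiers 511 had no name. The 13 mitochondrially encoded genes were looked up by name and not found among the genes read, so they were not compared. *T* was used for *Tbxt*, and *Mx2*, *Rigi* and *Ero1a* were not used. The alternatives were a pseudocount of 0.1, a minimum of 1, 10 or none, median-ratio rescaling, FPKM, counts scaled to library size, and stricter intervals. The code was tested on simulated data. The tools were scipy 1.17.1, matplotlib 3.10.9, pandas 2.3.3 and numpy 2.4.6 under Python 3.11.15.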

Additional observations from a re-analysis of the deposited data

Results flagged for a closer look

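The difference between the media had opposite signs in Oct4GFP- and Oct4GFP+ cells for 9 gene lists, taken as a median of log2(TPM + 1) differences at or below -0.5 in one fraction and at or above 0.5 in the other. The difference between the fractions was not tested, since each of the 4 groups has 1 library. Simple epithelial markers had a median of -1.56 in Oct4GFP- and 2.59 in Oct4GFP+ cells, and collagen chains -0.84 and 2.44, although only 6 collagen chains were compared in Oct4GFP+ cells. HIF1 targets had -1.10 and 0.68, and glycolysis genes, which share members with them, -0.79 and 1.18. Imprinted genes had -0.96 and 1.25, collagen processing genes -0.70 and 0.98, and EMT factors and their opponents -0.81 and 0.68. The EMT list mixes mesenchymal factors with epithelial opponents, and 7 of its genes were compared in Oct4GFP+ against 11 in Oct4GFP- cells. The medians were -0.60 and 0.72 for AhR and glucocorticoid targets and -0.53 and 0.60 for retinoic acid genes, where 6 and 10 genes were compared in Oct4GFP+ cells.

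The 5 genes most opposed between the fractions, on the same scale, began with *Lgals3* (galectin 3), at -3.17 in Oct4GFP- and 3.63 in Oct4GFP+ cells, with 87.5 and 795 TPM in 5C-Oct4GFP- and mES-Oct4GFP- and 131 and 9.73 in the Oct4GFP+ pair. *Msln* (mesothelin) stood at -2.86 and 4.46, *Upk3bl*, a uroplakin relative, at -3.55 and 2.84, and *Egln3* at -2.81 and 2.82. *Spink10* stood at -3.16 and 3.30 but on 1 and 48 reads in the Oct4GFP- pair, and it had no reads in mES-Oct4GFP+.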

How the results depend on the processing

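No paired analysis was possible because each group has 1 library, and leaving out a replicate would leave no library of that group. Of 11 alternatives 9 gave between 677 and 1120 higher genes, within 1.5 times of 1007, and between 837 and 1258 lower genes, against 1158; of these, the restriction to protein-coding genes (933 and 1108) and the subtraction of the Oct4GFP+ profile (1007 and 1156) were chosen after seeing the data. That subtraction took off 0.198% of the Oct4GFP+ profile in 5C-Oct4GFP- and 0% in mES-Oct4GFP-, so it could change little. A minimum of 1 TPM and no minimum each gave 1535 higher genes, beyond that range, and 1598 lower genes, equal because a gene under 1 TPM in both libraries cannot reach 2-fold with a pseudocount of 1. None of the genes called at the main setting was called in the opposite direction under any of the 11. The share of higher among all called genes ranged from 44.3% to 50%, and rescaling by the median ratio shifted the 2 libraries by 0.04 (log2) against each other. Of 384 named genes called, 11 were no longer 2-fold after that rescaling, 21 with counts scaled to library size and 25 with FPKM. Of 294 recomputed list medians 1 moved beyond its limit, that of collagen chains, to -1.04 at a minimum of 10 TPM, while 13 counts of higher and 31 counts of lower list members moved by over 1.5 times. Depth limits genes under about 5 TPM, where a ratio rests on few reads.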
